A study of Mus musculus with 2 samples.

Results

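C1q-low myeloid cells of the mouse mammary gland were chosen by their unique molecular identifiers (UMIs, 1 per captured transcript). A cell belonged to them if it carried at least 3 UMIs of Lyz2, which encodes the lysozyme of phagocytes, and at least 2 UMIs of Tyrobp and Fcer1g together, 2 signalling adaptors of myeloid receptors. It had to hold fewer than 10 UMIs of the complement genes C1qa, C1qb and C1qc, which mark tissue macrophages, no UMI of the T cell genes Cd3d, Cd3e and Cd3g or of the NK cell genes Ncr1 and Klrb1c, less than 0.5% of its UMIs from the neutrophil genes S100a8 and S100a9, and fewer than 10 UMIs of the keratins Krt8, Krt18 and Krt14. The rule found 147 cells among 15632 kept cells, of which 13 came from the 6297 cells of the library labelled Ctrl and 134 from the 9335 cells of that labelled CL. Because expression chose these cells, the levels of those genes are given as a description only.

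The Ctrl library came from control mice and the CL library from mice given clodronate liposomes, lipid vesicles whose drug kills the phagocytes that engulf them. The labels give mammary glands of mice aged 9 to 10 weeks, while the protocol gives ages from 8 weeks. The methods describe adult wild-type females. None of these sources states how many animals were pooled. Cells negative for the endothelial protein CD31 and the erythroid protein TER119 were sequenced, and in what proportion sorted fractions were mixed is not given in the sources used here. There was 1 library per group, so no difference has a replicate check, no test between the groups was made, and all intervals in brackets are exact 95% intervals that cover counting error only.

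Classical monocytes leave the blood, carry high Ly6c2 and Ccr2, and replace tissue macrophages when the latter are lost. Resident macrophages of the mammary gland surround the ducts, express C1q and the receptor gene Csf1r, and clear dying cells. Conventional dendritic cells take up antigen, present it on MHC class II, and migrate to lymph nodes through Ccr7. Cells with Lyz2 but little C1q can therefore include monocytes, cells on the way to macrophages, and dendritic cells.

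C1q-low myeloid cells had a median of 6387 UMIs and 1857 genes in Ctrl (from 1523 to 15258 UMIs) and 7372 UMIs and 2275 genes in CL (from 1070 to 29552 UMIs). Their UMIs summed to 87703 in Ctrl and 1059494 in CL, so that 1 UMI weighed far more in Ctrl. The whole libraries held 118743318 and 155765480 UMIs. No barcode was shared between the C1q-low cells of both libraries (0 shared), against 12 shared among all kept cells. Doublet scoring with Scrublet marked 3 of the 13 Ctrl cells and 0 of the 134 CL cells. Among all kept cells it marked 404 of 6297 in Ctrl and 506 of 9335 in CL.

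The share of C1q-low myeloid cells was higher in the library labelled CL. They made up 0.206% [0.110, 0.353] of kept cells in Ctrl and 1.44% [1.20, 1.70] in CL, a log2 ratio of 2.80 [1.97, 3.74]. C1q-high cells, taken with at least 10 C1q UMIs, any Lyz2 count and the same other criteria, made up 0.635% [0.454, 0.864] in Ctrl (40 cells), while the 56 cells of CL gave an interval of [0.453, 0.778], a log2 ratio of -0.08 [-0.69, 0.54]. Among C1q-low and C1q-high cells together, the C1q-low share went from 24.5% [13.8, 38.3] to 70.5% [63.5, 76.9], a log2 ratio of 1.52 [0.70, 2.47]. T and NK cells also made up more of CL, from 1.73% to 5.07% (log2 ratio 1.55 [1.25, 1.86]). Of C1q-low, T and NK cells counted together, C1q-low cells were 10.7% [5.80, 17.5] in Ctrl and 22.1% [18.8, 25.6] in CL, a smaller log2 ratio of 1.05 [0.23, 2.00], and the part of the sort in these shares was not tested. The CL library is labelled as macrophage-depleted, and the C1q-high share did not differ between the libraries beyond counting error. The paper reports a lower macrophage share after the treatment, both by flow cytometry and in its own clusters of the single-cell data. Its macrophage classes were not those used here.

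**Figure D1:**
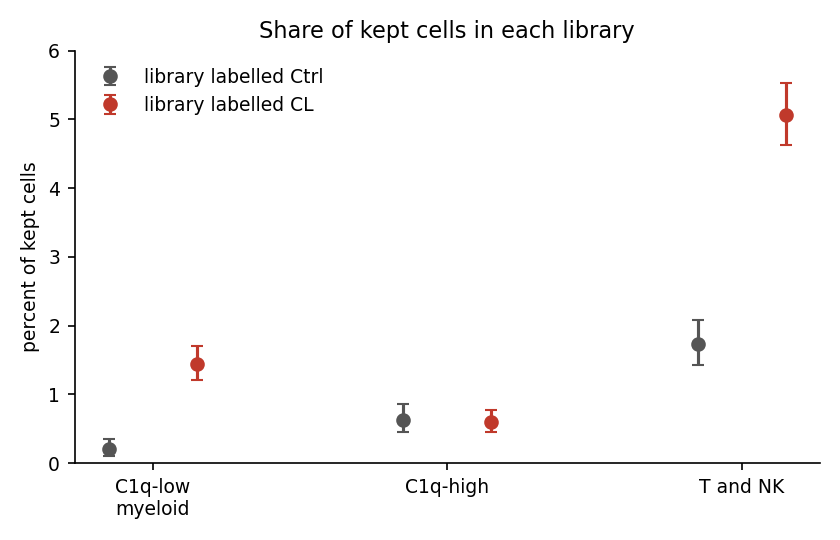
The y axis gives the percent of kept cells in each library for C1q-low myeloid, C1q-high, and T and NK cells, with points for the measured share and bars for exact 95% Clopper-Pearson intervals. The C1q-low share is 0.206% in Ctrl and 1.44% in CL with intervals that do not overlap, while the C1q-high intervals (0.454 to 0.864% and 0.453 to 0.778%) overlap.

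Near the thresholds, 12 Ctrl cells had no C1q UMI and 1 had 5 to 9, whereas 99 CL cells had none, 22 had 1 to 4 and 13 had 5 to 9. Just outside, with 10 to 19 C1q UMIs, lay 2 Ctrl and 9 CL cells. At the Lyz2 threshold, 3 Ctrl and 14 CL cells held 3 to 5 UMIs, and 1 and 19 cells with 1 or 2 UMIs stayed outside. Cells with 10 or more keratin UMIs that met every other criterion numbered 3 in Ctrl and 18 in CL. The single Ctrl cell just below the C1q threshold bears on several values given later for chemokines.

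The proposed label was checked against Lyz2, Tyrobp, Cd74, Aif1, Cd209a and Itgax. Lyz2 (median 12 UMIs per cell in Ctrl and 55.5 in CL) and Tyrobp (in 13 of 13 and 133 of 134 cells) were used by the rule. Cd74, the chaperone of MHC class II, was found in 11 of 13 and 116 of 134 cells. Aif1, an actin-binding protein of macrophages, was found in 1 of 13 Ctrl cells (1 UMI) and 80 of 134 CL cells (229 UMIs). Cd209a, a lectin of monocyte-derived and type 2 dendritic cells, was found in 3 of 13 Ctrl cells (33 UMIs) and only 5 of 134 CL cells (8 UMIs). Itgax, the integrin CD11c of dendritic cells, was found in 4 of 13 and 14 of 134 cells. The dendritic markers of the label were thus absent from most of the cells in both libraries, and the cells are described by their leading genes.

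Other cell types were looked for by marker lists. The 10 T cell genes summed to 28 UMIs in Ctrl and 96 in CL, and Cd3d, Cd3e and Cd3g were at 0 by the rule. The 9 NK cell genes summed to 73 UMIs in Ctrl and 10 in CL. A single Ctrl cell of 15258 UMIs, 1 of the 3 marked by Scrublet, carried 49 UMIs of the granzyme gene Gzma, 64 of the chemokine gene Ccl5, 9 of Nkg7 and 4 of Trbc1. The luminal epithelial list was at 1083 CPM (counts per 1000000 UMIs) in Ctrl and 845 CPM in CL (log2 ratio -0.36 [-0.67, -0.04]). Empty droplets (barcodes of 100 to 300 UMIs) held 20792 and 20827 CPM of it. The rule capped keratin UMIs in each cell, so epithelial levels here are a description only. The basal epithelial list was within counting error (-0.73 [-1.88, 0.66]). Haemoglobin came almost wholly from 1 CL cell, which held 65 of 67 Hbb-bs UMIs. S100a8 had 117 UMIs in CL and S100a9 had 1, with none of either in Ctrl, and the empty droplets of CL held 34.7 and 28.2 CPM of them. Mast cell and basophil genes were at 0 in both libraries.

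Classical monocyte genes were higher in CL as a summed list. In C1q-high cells the list rose more, from 350 to 2090 CPM (log2 ratio 2.58 [2.30, 2.87]). In C1q-low cells its 12 genes together had 332 UMIs in Ctrl (3786 CPM) and 7871 in CL (7429 CPM), a log2 ratio of 0.97 [0.81, 1.14]. Per cell the list spanned 215 to 14222 CPM in Ctrl with a median of 1313, and 0 to 22006 CPM in CL with a median of 7684. The ranges overlapped, and the median CL cell lay above the median Ctrl cell. Without the 3 Ctrl cells marked by Scrublet the list's log2 ratio was 0.39. Of the 12 genes, all were tested, 3 were at least 2-fold higher in CL and 1 at least 2-fold lower, and their median log2 ratio was -0.04, against -0.01 over all 1839 genes tested. Among those 1839 genes, 11.1% were at least 2-fold higher and 12.6% at least 2-fold lower in CL. These shares are the background for the counts past 2-fold of the other lists as well.

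Ly6c2 (chromosome 15, 75108158 to 75111970, minus strand, GRCm38), the gene of the monocyte surface protein Ly6C, had 2, 4 and 5 UMIs in 3 Ctrl cells and none in the other 10. In CL it was found in 98 of 134 cells, with a median of 4 and a maximum of 68 UMIs. This made 125 CPM in Ctrl against 957 in CL, a log2 ratio of 2.93 [2.09, 3.94]. After thinning every cell to 3116 UMIs, which left 11 Ctrl and 114 CL cells and left out 2 and 20, Ly6c2 was detected in 18.2% and 70.2% of cells (unthinned 23.1% and 73.1%). In epithelial cells, which should lack the gene, thinning left a UMI in 0.0419% of Ctrl and 0.267% of CL cells (4789 and 6371 cells before thinning, with median depths of 15632 and 13894 UMIs).

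Plac8, an abundant monocyte transcript, went from 889 to 3535 CPM (log2 ratio 1.99 [1.67, 2.33]) and was found in 8 of 13 and 117 of 134 cells. Empty droplets held 376 and 543 CPM of it. Clec4e, the receptor Mincle for fungal and dead-cell lipids, went from 205 to 679 CPM (1.73 [1.05, 2.49]) and was found in 8 of 13 and 103 of 134 cells. Without the Scrublet-marked cells the log2 ratios of Ly6c2 and Plac8 were 2.21 and 1.29. Plac8, Clec4e and Ly6c2 were the 3 members of the list past 2-fold in that direction.

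Chil3, a secreted chitinase-like protein of monocytes, had 22, 17 and 2 UMIs in 3 Ctrl cells and was found in 74 of 134 CL cells, at 467 and 714 CPM (0.61 [0.16, 1.10]). Its direction turned with keratins below 3 UMIs (-1.003 [-1.63, -0.31]), and it was within counting error without the Scrublet-marked Ctrl cells (-0.11 [-0.57, 0.38]), without subcluster 3 (-0.0941) and with Lyz2 of at least 10 UMIs (0.0102). With C1q below 5 UMIs it was also within counting error (0.45 [-0.0069, 0.94]). Vcan, the matrix proteoglycan versican, was lower in CL, at 741 and 365 CPM (-1.02 [-1.40, -0.62]). However, 53 of its 65 Ctrl UMIs came from 1 cell, and without the top cell of each library the log2 ratio of Vcan was 1.21. Ccr2, the receptor that draws monocytes from bone marrow, was found in 6 of 13 and 61 of 134 cells at 205 and 132 CPM, within counting error (-0.64 [-1.35, 0.16]). Cells with at least 2 of Ly6c2, Chil3 and Vcan numbered 3 of 13 in Ctrl and 85 of 134 in CL (63.4%).

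**Figure D2:**
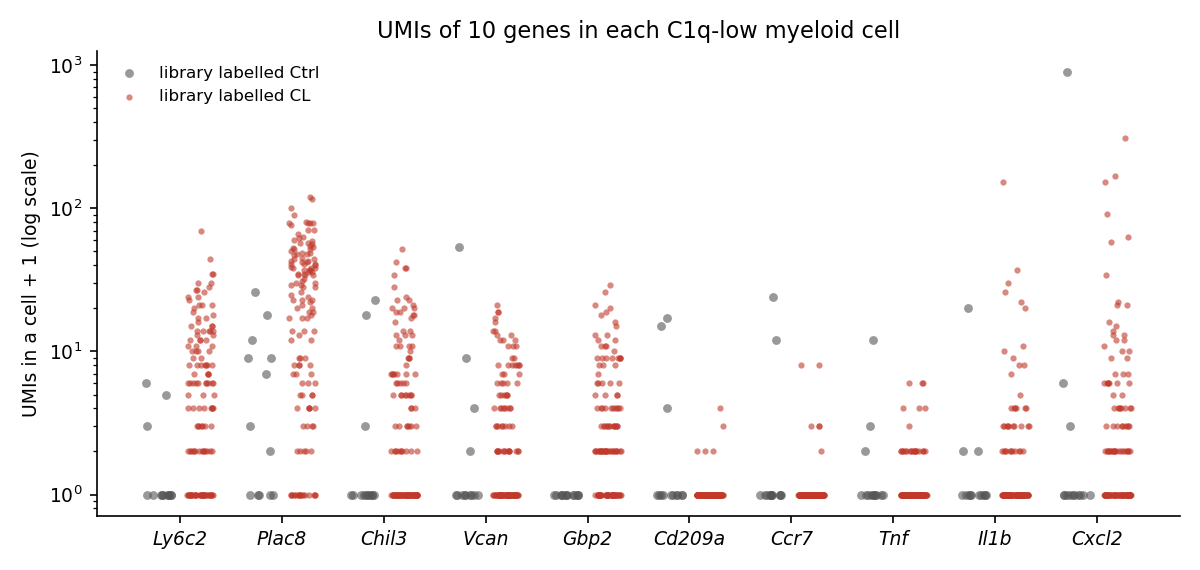
Each point is a C1q-low myeloid cell, with the UMIs of the gene in that cell plus 1 on a log y axis, for 10 genes and both libraries. Ly6c2 and Gbp2 fill the CL column and are sparse or at 0 in Ctrl, Cd209a and Ccr7 sit in 3 and 2 Ctrl cells, and a single Ctrl cell holds 898 UMIs of Cxcl2.

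Non-classical monocyte genes, of the monocytes that patrol vessel walls, were lower in CL as a list, at 775 CPM in Ctrl and 312 CPM in CL (-1.31 [-1.69, -0.91]). Of the 3 genes of this list that were tested, 2 were at least 2-fold lower. Ace, the angiotensin-converting enzyme, had 4, 4, 3 and 2 UMIs in 4 Ctrl cells, or 148 CPM, and 23 UMIs in 13 CL cells, or 21.7 CPM (-2.77 [-3.81, -1.67]). All of the 4 Ctrl cells with Ace lay in a single subcluster described later.

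MHC class II presentation genes were lower in CL as a sum over all C1q-low cells, but not under each choice of cells. The 14 genes stood at 40569 CPM in Ctrl against 18319 in CL (-1.15 [-1.20, -1.10]), against 94687 and 65052 CPM in C1q-high cells (-0.54 [-0.56, -0.52]). Of the 8 genes tested, 5 were at least 2-fold lower and 0 at least 2-fold higher, with a median log2 ratio of -1.17. With keratins below 3 UMIs, which left 3 Ctrl and 59 CL cells, the direction turned, to 1.81 [1.43, 2.22] for the list, 1.87 [1.22, 2.60] for Cd74, 3.94 [2.09, 6.99] for H2-Aa and 2.73 [1.37, 4.61] for H2-Eb1. Over all members, Cd74 went from 17639 to 6853 CPM (-1.36), H2-Ab1 from 7446 to 3036 CPM (-1.29), H2-Eb1 from 6818 to 2747 CPM (-1.31) and H2-Aa from 6488 to 3045 CPM (-1.09). Ctss, the cathepsin that trims the class II chaperone, went the other way, from 912 to 1667 CPM (0.87 [0.55, 1.21]).

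Single cells spanned the whole range of these genes in both libraries. The 4 genes Cd74, H2-Aa, H2-Ab1 and H2-Eb1 together exceeded 20000 CPM in 6 of 13 Ctrl cells, which ranged up to 84555 CPM, and in 26 of 134 CL cells (19.4%), which ranged up to 78548 CPM. The medians were 12560 CPM in Ctrl and 4744 CPM in CL, and both libraries held cells at 0. Without the subcluster of cells high in these genes (7 Ctrl and 103 CL cells left), the log2 ratio of the list was 0.63 in place of -1.15, an alternative chosen after seeing the data. Without the 3 Scrublet-marked Ctrl cells, all high in these genes, it was -0.56.

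**Figure D3:**
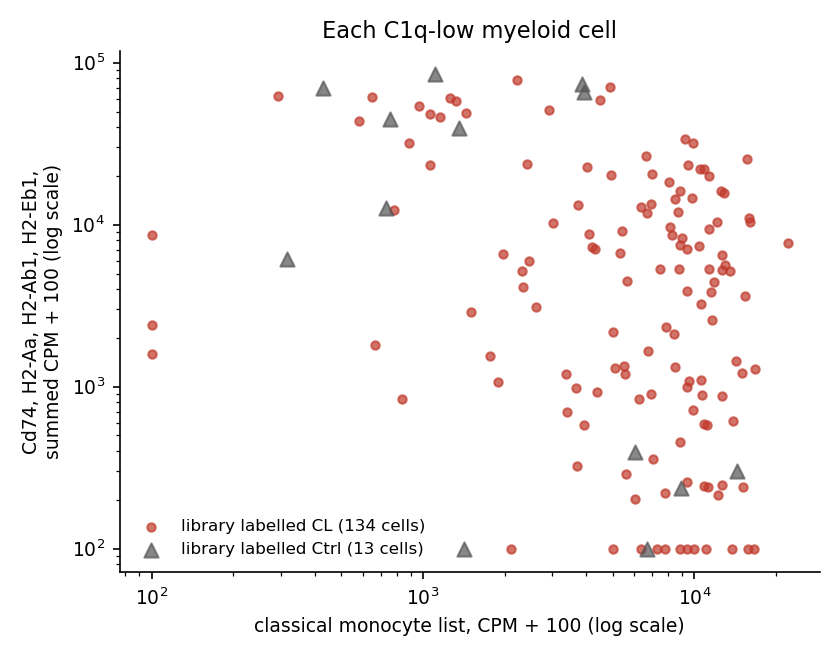
Each point is a C1q-low myeloid cell, with the summed CPM of 12 classical monocyte genes on the x axis and of Cd74, H2-Aa, H2-Ab1 and H2-Eb1 on the y axis, both plus 100 on log scales. Of the Ctrl cells 6 of 13 lie above 20000 CPM of the class II genes, against 26 of 134 CL cells, and most CL cells lie at high monocyte levels.

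The class II genes share a promoter layout, an X box followed by a Y box (an inverted CCAAT motif), bound by factors that recruit the transactivator Ciita. The stretches upstream of H2-Aa and H2-Eb1 are shown because these genes moved together. Promoters of the other genes of the list are not shown. They are RefSeq promoters on GRCm38.p6, with the letters GCAAC of the X box region and ATTGG of the Y box in capitals. H2-Aa lies on the minus strand at chr17:34287847-34287924 and H2-Eb1 on the plus strand at chr17:34305756-34305832.
H2-Aa: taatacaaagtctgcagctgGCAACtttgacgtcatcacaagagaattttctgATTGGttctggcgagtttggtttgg
H2-Eb1: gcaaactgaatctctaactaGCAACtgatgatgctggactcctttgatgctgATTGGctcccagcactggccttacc
GCAAC and ATTGG were 28 and 27 bases apart. The same pair within 40 bases, searched on both strands of the 250 bases before the start, was present in 1.51% of 32851 promoters. A match describes the letters only.

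Genes of type 2 and of mature dendritic cells were lower in CL as sums, and few cells carried their defining markers. The 12 genes of the conventional DC2 list together had 142 UMIs in Ctrl (1619 CPM) and 581 in CL (548 CPM), a log2 ratio of -1.56 [-1.83, -1.29], and 5 of the 6 genes tested were at least 2-fold lower. In C1q-high cells the list went from 887 to 469 CPM (-0.92 [-1.16, -0.67]). In C1q-low cells its log2 ratio was -0.78 without the Scrublet-marked Ctrl cells, and 0.24 [-0.91, 1.70] with keratins below 3 UMIs (3 Ctrl cells left). Cd209a (chromosome 8, 3743397 to 3748984, minus strand) had 16, 14 and 3 UMIs in 3 Ctrl cells, or 376 CPM, and 8 UMIs over 5 CL cells, or 7.55 CPM. Its log2 ratio was -5.64 [-6.96, -4.50], and C1q-high cells had 3.10 CPM in Ctrl and none in CL. The Ctrl cells with 16 and 3 Cd209a UMIs were marked by Scrublet. The lectin gene Clec10a went from 160 to 23.6 CPM (-2.76 [-3.76, -1.70]) and its relative Mgl2 from 148 to 17.0 CPM (-3.13 [-4.24, -1.97]). The same marked cells held 5 UMIs of Clec10a each, beside 3 and 1 in other Ctrl cells. Napsa, an aspartic protease, was at similar levels, 319 and 312 CPM (-0.03 [-0.59, 0.58]).

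Mature migratory dendritic cell genes went from 2315 to 363 CPM (-2.67 [-2.92, -2.42]), and the log2 ratio was -0.86 without the Scrublet-marked Ctrl cells and within counting error with keratins below 3 UMIs (-0.96 [-1.93, 0.20]). The list holds Ccl5, of which the Ctrl cell with Gzma carried 64 of the 203 Ctrl UMIs of the list, and T and NK cells held 12822 and 14637 CPM of the list. Without that cell, an alternative chosen after seeing the data, the log2 ratio was -1.76 [-2.09, -1.41]. Ccr7 (chromosome 11, 99144196 to 99155077, minus strand) had 23 and 11 UMIs in 2 Ctrl cells, both marked by Scrublet, and 21 UMIs over 6 CL cells, or 388 and 19.8 CPM (-4.29 [-5.15, -3.46]). The co-stimulatory gene Cd83 was broader, in 11 of 13 Ctrl and 61 of 134 CL cells, at 821 and 191 CPM (-2.11 [-2.50, -1.70]). Cd86, another co-stimulatory gene, went from 479 to 201 CPM (-1.25 [-1.74, -0.74]). Among these cells, chosen for Lyz2, the type 1 dendritic markers Clec9a or Xcr1 were found in 2 of 13 Ctrl and 4 of 134 CL cells. Clec9a, their receptor for dead cells, had 14 UMIs over 4 CL cells and none in Ctrl, where a count of 0 allows up to 34.2 CPM. The 10 genes of the conventional DC1 list summed to 239 and 359 CPM, within counting error (0.58 [-0.05, 1.29]), but their log2 ratio was 1.93 [0.69, 3.56] without the Scrublet-marked Ctrl cells.

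The 17 genes of the resident macrophage list went from 3386 to 1953 CPM (-0.79 [-0.97, -0.61]). Of the 7 genes tested, 4 were at least 2-fold lower and 1 at least 2-fold higher. The list holds C1qa, C1qb and C1qc, whose UMIs the rule limits, and without these 3 genes, an alternative added after seeing the data, its log2 ratio was -0.85 [-1.03, -0.67]. The log2 ratio of the whole list was -1.22 without the Scrublet-marked Ctrl cells. In C1q-high cells, which were chosen for C1q, the list went from 33958 to 24567 CPM (-0.47 [-0.50, -0.43]). Empty droplets held 573 and 509 CPM of it. Adgre1, which encodes F4/80, was found in 3 of 13 and 74 of 134 cells, at 45.6 and 143 CPM (1.64 [0.26, 3.54]). Csf1r was found in 8 of 13 and 86 of 134 cells, at 228 and 205 CPM (-0.15 [-0.82, 0.58]). Mrc1, the mannose receptor, went from 205 to 29.3 CPM (-2.81 [-3.69, -1.89]), with 11 of its 18 Ctrl UMIs in 1 cell.

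The lipid-associated macrophage list went from 4766 to 6708 CPM (0.49 [0.35, 0.64]), with 4 of 9 genes tested at least 2-fold higher and 1 lower, and its log2 ratio was 0.18 without the Scrublet-marked Ctrl cells and -0.20 [-0.47, 0.09] with keratins below 3 UMIs. Empty droplets held 6081 and 6490 CPM of this list. Fabp5, a fatty acid carrier, was found in 6 of 13 and 77 of 134 cells and went from 137 to 661 CPM (2.27 [1.46, 3.23]), beside 182 and 151 CPM in empty droplets. Gpnmb, a glycoprotein of lysosome-rich macrophages, had 3 UMIs in Ctrl (34.2 CPM) and 149 in CL (141 CPM), a log2 ratio of 2.04 [0.46, 4.33]. Spp1, the secreted protein osteopontin, had 1 UMI in Ctrl and 199 in CL, over 31 of 134 cells, and a log2 ratio of 4.04 [1.55, 9.35].

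The lysosome and phagocytosis list went from 6944 to 11736 CPM (0.76 [0.64, 0.88]), with 4 of 13 genes tested at least 2-fold higher and 1 at least 2-fold lower. Over all genes tested, the shares were 11.1% higher and 12.6% lower. Without the Scrublet-marked Ctrl cells its log2 ratio was 0.37. In C1q-high cells the same list was at 16657 and 16188 CPM (-0.04 [-0.09, 0.01]). Psap, the precursor of the saposins that help to degrade sphingolipids, was found in every C1q-low cell and went from 1482 to 3291 CPM (1.15 [0.90, 1.41]). Its median was 7 UMIs per Ctrl cell and 23 per CL cell. Lamp1, a lysosomal membrane protein, went from 422 to 849 CPM (1.01 [0.54, 1.53]), and Ctsb, a cysteine protease, from 1231 to 1953 CPM (0.67 [0.39, 0.96]).

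Interferon response genes were higher in CL, at 490 CPM in Ctrl (43 UMIs) and 1152 CPM in CL (1221 UMIs), a log2 ratio of 1.23 [0.79, 1.71]. The list was also higher in CL in empty droplets (338 and 758 CPM) and in C1q-high cells (0.79 [0.61, 0.97]). The part of free RNA in it was not tested. Of the 4 genes tested, 2 were at least 2-fold higher and 0 at least 2-fold lower. Gbp2 (chromosome 3, 142620602 to 142638008, plus strand), a GTPase induced by interferon-gamma, had no UMI in any of 13 Ctrl cells and 456 UMIs over 87 of 134 CL cells, or 430 CPM. Taking 3 UMIs over the Ctrl cells as the limit that a count of 0 allows, its level was at least 3.65 higher on the log2 scale, while the exact interval of the ratio began at 3.35, and with keratins below 3 UMIs, which left 3 Ctrl cells, the same limit gave 1.15. Gbp2 was also higher outside the myeloid cells. Empty droplets held 36.0 CPM in Ctrl and 285 CPM in CL, C1q-high cells 15.5 and 367 CPM, and the thinned share of epithelial cells with a UMI was 5.55% and 26.4%, beside 0% and 54.4% of C1q-low cells. The part of free RNA in the Gbp2 level was not tested. Psmb9, an immunoproteasome subunit, had 1 UMI in Ctrl and 194 in CL (4.01 [1.51, 9.32]).

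Part of the RefSeq promoter of Gbp2 (plus strand, chr3:142620584-142620623, GRCm38.p6) is shown because Gbp2 had the highest count among genes at 0 in Ctrl. The capitals mark the core of the interferon-stimulated response element, GAAA and GAAA with 2 bases of any kind between them, read on the opposite strand, and the gene start given above lies within this stretch. On either strand this core was in 2.98% of 32851 promoters over the 250 bases before the start.
Gbp2: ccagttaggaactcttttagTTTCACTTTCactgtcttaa

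Tnf (chromosome 17, 35199381 to 35202007, minus strand) encodes the cytokine TNF-alpha, which the study examined as a macrophage signal to mammary stem cells. It had 11, 2 and 1 UMIs in 3 Ctrl cells and none in the other 10. In CL it had 44 UMIs over 25 of 134 cells, at most 5 in a cell. Its level went from 160 CPM [87.3, 268] to 41.5 CPM [30.2, 55.8], a log2 ratio of -1.94 [-2.84, -0.96]. The single Ctrl cell with 11 UMIs carried 78.6% of the Ctrl count, and without it, an alternative chosen after seeing the data, the log2 ratio was 0.17. In C1q-high cells Tnf was at 329 CPM in Ctrl and 116 CPM in CL, above the C1q-low level of the same library in both cases. Empty droplets held 35.5 and 31.9 CPM, and the part of free RNA in the Tnf level of C1q-low cells was not tested. After thinning, 18.2% of Ctrl and 10.5% of CL cells had a UMI (unthinned 23.1% and 18.7%), beside 9.88% and 11.4% of epithelial cells.

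Chemokine genes gave the largest difference among the 14 pathway lists, and 1 cell carried most of it. They went from 19475 to 2709 CPM (-2.85 [-2.93, -2.76]), with 7 of 9 genes tested at least 2-fold lower. Per cell the medians were 1508 and 1443 CPM, and the highest Ctrl cell reached 225928 CPM. This cell, with 9 C1q UMIs just below the threshold and a Scrublet score of 0.324, held 898 of 905 Ctrl UMIs of the neutrophil attractant Cxcl2, 182 of 184 of Ccl3, 205 of 228 of Ccl4, 94 of 95 of Ccl2 and 53 of 54 of Ccl7, as well as the 11 Tnf UMIs. The log2 ratio of Cxcl2 was -3.21 with this cell and 3.70 without it, and those of Ccl2, Ccl3 and Ccl7 turned likewise, to 2.87, 1.97 and 1.43. The whole list was at -0.27 without this cell, an alternative chosen after seeing the data, and at 0.35 [-0.14, 0.88] with keratins below 3 UMIs. In CL, Cxcl2 was found in 71 of 134 cells with at most 307 UMIs in a cell. Ccl5 had 64 of its 65 Ctrl UMIs in the cell with Gzma, and its log2 ratio was -4.37 with that cell and 1.38 without it. Ccl6 and Ccl9, chemokines of resting myeloid cells, were found in 9 and 11 of 13 Ctrl cells and 110 and 94 of 134 CL cells, with log2 ratios of -0.77 [-1.10, -0.43] and -0.62 [-1.01, -0.21]. Of the 86 Ctrl UMIs of Ccl6, 52 came from 1 cell, and without the top cell of each library the log2 ratios of Ccl6 and Ccl9 were 0.30 and -0.30.

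Inflammatory cytokines went from 4394 to 1840 CPM in C1q-high cells (-1.26 [-1.37, -1.14]). In C1q-low cells they summed to 1459 and 1013 CPM (-0.53 [-0.79, -0.25]). Without the Scrublet-marked Ctrl cells the list was within counting error (-0.27 [-0.64, 0.11]), and with keratins below 3 UMIs it was at 1.02 [-0.04, 2.34]. Il1b was at 239 and 361 CPM (0.59 [-0.04, 1.30]), with 19 of 21 Ctrl UMIs in 1 cell and 153 of 383 CL UMIs in another. Its call depended on the cells taken, at 0.78 [0.16, 1.47] with Lyz2 of at least 1 UMI, 4.31 [1.82, 9.62] with Lyz2 of at least 10 UMIs and 3.26 [1.40, 6.31] without the Scrublet-marked Ctrl cells. Il1rn, the receptor antagonist of interleukin 1, went from 502 to 205 CPM (-1.29 [-1.77, -0.79]), with 25 of its 44 Ctrl UMIs in 1 cell, and the log2 ratio of Il1rn was -0.40 without the top cells. NF-kB targets went from 4093 to 2351 CPM (-0.80 [-0.96, -0.64]), with 5 of 9 genes at least 2-fold lower. Genes of the dissociation stress list went from 7970 to 4852 CPM (-0.72 [-0.83, -0.60]), and in C1q-high cells from 11038 to 5924 CPM (-0.90 [-0.97, -0.83]). Without the Scrublet-marked Ctrl cells the log2 ratios were -0.22 for NF-kB targets and -0.15 for the stress list. With keratins below 3 UMIs they were 0.87 [0.18, 1.66] and 0.22 [-0.15, 0.60], and without subcluster 3 they were 0.0228 and -0.16. The part of stress genes in the other lists was not tested.

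**Figure D4:**
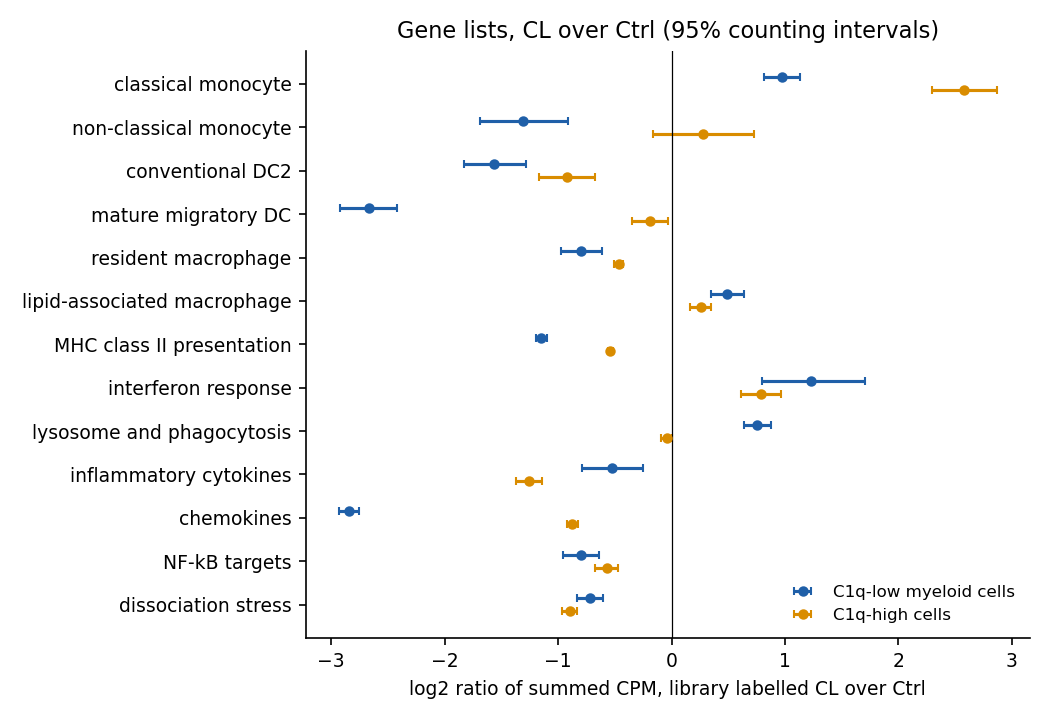
Log2 ratios of summed CPM, CL over Ctrl, are on the x axis for 13 gene lists in C1q-low and C1q-high cells, with bars for exact 95% counting intervals. The classical monocyte list lies to the right in both cell sets (0.97 and 2.58), and chemokines lie at -2.85 in C1q-low and -0.87 in C1q-high cells.

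Among receptors and regulators, the Fc and pattern receptor list went from 4732 to 5943 CPM (0.33 [0.19, 0.48]), but was within counting error without the Scrublet-marked Ctrl cells (0.09 [-0.08, 0.26]). The list holds Fcer1g, which the rule used. Clec4n, the receptor Dectin-2, went from 68.4 to 256 CPM (1.90 [0.76, 3.36]), while Cd14, the co-receptor for bacterial lipopolysaccharide, was at 1015 and 983 CPM (-0.05 [-0.36, 0.28]). Lineage transcription factors went from 4789 to 3458 CPM (-0.47 [-0.62, -0.32]), with 5 of 11 genes tested at least 2-fold lower and a median log2 ratio of -0.90. The log2 ratio of this list was -0.73 without the Scrublet-marked Ctrl cells, and empty droplets held 1841 and 1760 CPM of it. Spi1, the PU.1 factor of all myeloid cells, was within counting error (-0.20 [-0.70, 0.35]), as was Cebpb (-0.18 [-0.40, 0.04]). Colony stimulating factor receptors summed to 1277 and 898 CPM (-0.51 [-0.79, -0.21], or -0.96 without the Scrublet-marked cells), and chemokine receptors to 1642 and 686 CPM (-1.26 [-1.52, -0.99]). Of the 5 chemokine receptor genes tested, 1 was at least 2-fold lower and 0 at least 2-fold higher. Its 144 Ctrl UMIs include 23 and 11 of Ccr7 from Scrublet-marked cells. With keratins below 3 UMIs both receptor lists fell within counting error, at -0.51 [-1.19, 0.27] and -0.77 [-1.48, 0.03].

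Adhesion and actin genes went from 12565 to 15008 CPM (0.26 [0.17, 0.35]), below empty droplets of either library (17206 and 20447 CPM). This difference fell within counting error with keratins below 3 UMIs (-0.0702) and without subcluster 3 (-0.0036). S100a4, a calcium-binding protein of migrating cells, went from 1881 to 2821 CPM (0.58 [0.36, 0.82]), and Vim, the intermediate filament vimentin, was at 3808 and 3942 CPM (0.05 [-0.11, 0.21]). Growth factors that act on epithelium summed to 593 and 877 CPM (0.56 [0.16, 1.00], or 0.22 [-0.24, 0.71] without the Scrublet-marked cells). Of these sums Tgfbi, a secreted matrix protein, made 353 and 654 CPM (0.89 [0.37, 1.46]). Empty droplets held more of the list, 2184 and 1836 CPM. Cell division genes summed to 228 and 365 CPM (0.68 [0.03, 1.41], or 1.69 without the Scrublet-marked cells), less than in empty droplets of either library (563 and 402 CPM). Their interval included 0 with Lyz2 of at least 10 UMIs (0.74 [-0.08, 1.71]), with keratins below 3 UMIs (1.53 [-0.99, 6.86]) and with at least 1000 genes per cell (0.65).

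Across all 1839 genes with at least 100 CPM in the higher library and 20 UMIs over both, 205 were at least 2-fold higher and 231 at least 2-fold lower in CL. The 10 highest ratios that met the rule for names were those of Aif1, Spp1, Psmb9, Mfsd1, Slc16a3, Gbp2, Sdc3, Tppp3, Vps35 and Ndufab1, of which all but Gbp2 (no UMI) had 1 UMI in Ctrl. With Lyz2 of at least 1 UMI the log2 ratio was 1.33 [0.33, 2.56] for Aif1, 1.88 for Vps35 and 1.89 for Ndufab1, and with C1q below 20 UMIs it was 1.66 for Aif1 and 1.52 for Vps35. Slc16a3, a lactate exporter of glycolytic cells, had 164 UMIs over 69 of 134 CL cells (3.76 [1.26, 9.08]). Sdc3, the proteoglycan syndecan 3, had 150 UMIs over 64 cells (3.63 [1.13, 8.95]). Without subcluster 3 the intervals of both included 0 (2.50 [-0.00637, 7.82] and 2.43 [-0.0749, 7.75]). The 10 lowest were Cd209a, Ccl4, Ccl3, Ccl5, Ccr7, Ccl7, Ccl2, Dusp16, Nr4a3 and Cxcl2. Dusp16, a phosphatase of stress kinases, had 26 UMIs over 7 of 13 Ctrl cells and 29 over 24 of 134 CL cells (-3.44 [-4.25, -2.62]). Nr4a3, an orphan nuclear receptor, had 24 over 5 and 31 over 21 cells (-3.23 [-4.04, -2.39]), and the ratio was within counting error without the Scrublet-marked Ctrl cells (-0.36 [-2.34, 2.74]).

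Clustering of the 147 cells gave 4 subclusters, whose defining genes describe them and are no test. Subcluster 1 held 45 cells, 6 of 13 from Ctrl (46.2% [19.2, 74.9]) and 39 of 134 from CL (29.1% [21.6, 37.6]). It was led by Smc4, the collagenase gene Mmp8, Zc3h12c and the G protein subunit gene Gngt2, with Chil3 in 27 cells and Ace in 11. Within it the non-classical list was at 2051 CPM in the 6 Ctrl cells and 519 CPM in the 39 CL cells, and the classical list at 4062 and 10056 CPM.

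Subcluster 2 held 42 cells, all from CL (31.3% [23.6, 39.9]), and 0 of 13 Ctrl cells allows a share of up to 24.7% there. It was led by the membrane protease gene Mmp14, Idh1, Pdia4, Pmp22 and Sdc3, with the legumain gene Lgmn at 2127 CPM per cell on average against 444 CPM in the other cells. C1qb was also among its leading genes (281 and 57.3 CPM), and 8 of the 42 cells had 5 to 9 C1q UMIs. Its lysosome and phagocytosis list was at 20387 CPM, against 9202 CPM in all other C1q-low cells, and Ly6c2 was found in 28 of the 42 cells. Luminal epithelial genes were also higher in it, at 1314 CPM against 755 CPM in the others, with Krt19, Areg and Prlr at least 2-fold above, and their part in this subcluster was not tested. Its cells had the lowest median depth of the 4 (4819 UMIs) and the highest median mitochondrial share (4.25%).

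Subcluster 3 held 37 cells, 6 of 13 from Ctrl (46.2%) and 31 of 134 from CL (23.1% [16.3, 31.2]), and was led by H2-Eb1, H2-Aa, Wnt11 and H2-Ab1. All 8 cells with Cd209a, all 8 with Ccr7 and all 4 with Clec9a lay in it, as did the 3 Ctrl cells marked by Scrublet. Its median depth was 12218 UMIs. Within it the class II list was at 65015 CPM in Ctrl and 39903 CPM in CL, the DC2 list at 2327 and 884 CPM, and Ly6c2 at 95 and 702 CPM. Subcluster 4 held 23 cells, 1 from Ctrl and 22 from CL (16.4% [10.6, 23.8]), and was led by Ccrl2, Il1b, Acod1, the itaconate-producing enzyme, and Ptgs2, the inducible cyclo-oxygenase. Il1b averaged 1329 CPM in it against 135 CPM in the other cells.

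**Figure D5:**
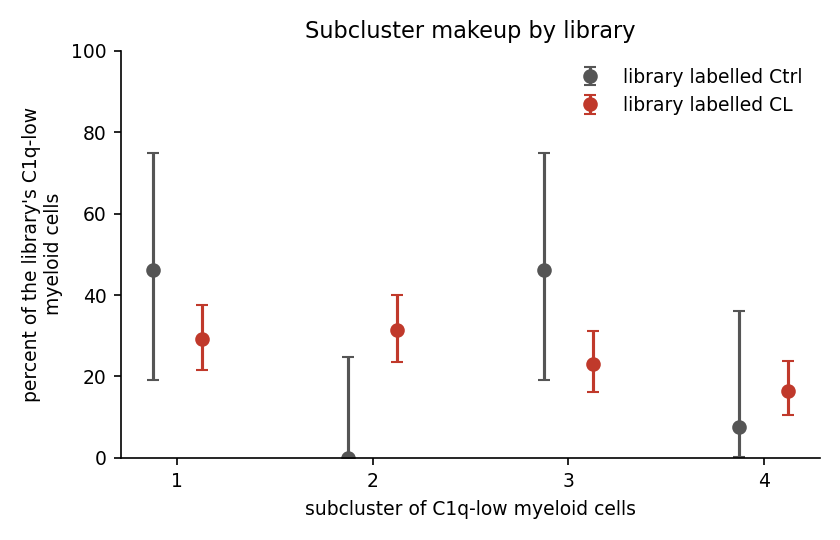
The y axis gives the percent of each library's C1q-low myeloid cells that fell in each of 4 subclusters, with exact 95% Clopper-Pearson intervals. Subcluster 2 holds 31.3% of CL cells and 0 of 13 Ctrl cells, and the Ctrl intervals are wide because the library has 13 such cells.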

How the data were processed

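The authors deposited raw UMI counts per gene and barcode (unfiltered, not normalized) for 1 library per group. The processing notes of the submitters name Cell Ranger 2.1.1 and mm10, whereas the headers of the deposited count matrices name Cell Ranger 4. The annotation is not given in the sources used here. The deposited barcode lists do not index the columns of the unfiltered matrices, so as a substitute as many barcodes as each list held (7217 and 10555), those with most UMIs, were taken as candidates, and cells with at least 500 genes and at most 15% mitochondrial UMIs were kept. The members and gene lists were chosen with earlier results of these data known. Counts were summed over cells and scaled to CPM. Ratios have exact conditional binomial intervals, shares Clopper-Pearson and sums Poisson intervals, all at 95%. PCR and capture errors are not covered.

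Named genes, beyond 19 marker and 14 gene lists (2 of 336 symbols unmatched), were the 10 highest and 10 lowest ratios whose higher library held 20 or more UMIs, 100 or more CPM and a UMI in 10% of its cells, and whose interval left out a ratio of 1. Not considered were genes of the selection, markers of other cell types, genes without a symbol, and sex-linked, haemoglobin, ribosomal and mitochondrial genes. Some genes of the lists are not reported singly here. Reads of near-identical genes (the H2 and Ly6 families, Lyz1 and Lyz2, Ccl and Hb clusters) may have been split between copies.

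Subclusters were made in scanpy 1.11.5 (10000 UMIs per cell, 1000 variable genes, 15 components, 10 neighbours, Leiden 0.6). The Scrublet threshold set on Ctrl (0.197) was used for both libraries, after its automatic CL threshold (0.592) marked 1 cell. T and NK cells for comparison had at least 2 UMIs of Cd3 or of Ncr1 and Klrb1c, epithelial cells at least 50 keratin UMIs. TMM factors came from edgeR 4.0.16 in R 4.3.3. The ratios and intervals were tested on simulated data with known folds. Gene positions came from GENCODE M21 on GRCm38, promoters from RefSeq. Alternatives covered the cell filters, the C1q, Lyz2 and keratin limits, doublets, scaling, the CPM minimum, clustering and thinning. A further 5 were added after seeing the data. No differential test was possible with 1 library per group.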

Additional observations from a re-analysis of the deposited data

Results flagged for a closer look

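The Fc and pattern receptor list went in opposite directions between the libraries in both sets of myeloid cells, each beyond counting error. Its log2 ratio of CL over Ctrl was 0.33 in C1q-low cells and -0.13 in C1q-high cells, and with 1 library per group the difference between them was not tested. The value in C1q-low cells was within counting error without the 3 Ctrl cells marked by Scrublet (0.09 [-0.08, 0.26]) and with the C1q limit that divides both sets at 20 UMIs (0.04 [-0.08, 0.17]). Of the 8 genes of the list tested in C1q-low cells, 4 were at least 2-fold higher and 0 at least 2-fold lower in CL.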

How the results depend on the processing

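The higher C1q-low share in CL (log2 ratio 2.80) and the higher C1q-low share of myeloid cells (1.52) stayed within their counting intervals under every alternative run. Values described here are log2 ratios of CL over Ctrl unless stated, and the cause of a difference between settings was not tested where none is named. A limit is that 13 Ctrl cells stand for a whole library, so that single cells decide chemokine, cytokine and dendritic values. TMM factors move all ratios by 0.18.

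With keratins below 3 UMIs only 3 Ctrl and 59 CL cells remained, and the class II list was at 1.81, conventional DC2 at 0.24, classical monocyte at 0.51, resident macrophage at -1.87, lipid-associated macrophage at -0.20, inflammatory cytokines at 1.02, chemokines at 0.35, NF-kB targets at 0.87, dissociation stress at 0.22, actin and adhesion at -0.0702, growth factors at -0.0191, Ccl3 at 0.79, Chil3 at -1.003, Cd74 at 1.87, H2-Aa at 3.94 and H2-Eb1 at 2.73, with 403 genes at least 2-fold lower. Without Scrublet-marked cells (10 Ctrl cells left) the values were 0.39 for classical monocyte, -0.78 for DC2, -1.22 for resident macrophage, -0.56 for class II, -0.44 for Tnf, 1.35 for Ccl3, 0.93 for Ccl5, 0.81 for Ccl7, 2.25 for Ccl2, 3.08 for Cxcl2 and -0.11 for Chil3. With C1q below 5 UMIs, which leaves out the Ctrl cell with 9, they were -1.07 for class II, 0.23 for Tnf, 2.08 for Ccl3, 1.55 for Ccl7, 2.93 for Ccl2 and 3.8004 for Cxcl2. With C1q below 20 UMIs resident macrophage was at -1.35 and class II at -1.23.

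With Lyz2 of at least 10 UMIs classical monocyte was at 0.67, DC2 at -1.24 and class II at -0.82, and with Lyz2 of at least 1 UMI class II was at -1.27. A mitochondrial limit of 5% gave class II -1.05, and the mean of each cell's CPM -1.21. TMM factors gave 1.16 for classical monocyte, -0.61 for resident macrophage and -0.96 for class II. A minimum of 200 CPM left 79 genes at least 2-fold higher and 101 lower, and a minimum of 50 CPM gave 460 and 420.

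Of the alternatives added after seeing the data, leaving out the Ctrl cell with Gzma gave 0.74 for classical monocyte, -1.02 for resident macrophage and 1.38 for Ccl5. Leaving out the Ctrl cell with most Cxcl2 gave 0.17 for Tnf, 1.97 for Ccl3, 1.43 for Ccl7, 2.87 for Ccl2 and 3.70 for Cxcl2. Leaving out subcluster 3 gave 0.35 for classical monocyte, -0.64 for DC2, -1.11 for resident macrophage, 0.63 for class II, 0.0228 for NF-kB targets, -0.0036 for actin and adhesion, 1.24 for Ccl3, 4.52 for Cxcl2, -0.0941 for Chil3, 0.20 for Cd74, 2.20 for H2-Aa and 1.57 for H2-Eb1, with 388 genes at least 2-fold lower. At Leiden 0.3 the best match of subclusters 1 and 4 was the same cluster (46.3% of CL and 53.8% of Ctrl cells). At Leiden 1.0 the best-matching shares of CL cells were 20.9% for subcluster 1, 17.9% for subcluster 2 and 14.9% for subcluster 3 (7.69% of Ctrl cells), and with 2000 variable genes subcluster 3 held 14.2% of CL cells. Tnf with at least 2 UMIs, unthinned, was found in 5.22% of CL cells. Among shares, counts of genes, Tnf and the classical monocyte, DC2, class II and resident macrophage lists, 133 of 177 alternative values stayed within the main interval or, for counts, within 1.5 times the main count, 39 moved beyond it and 5 changed sign. For single genes, other lists and cell numbers these were 529, 123 and 35 of 687.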
